A study of Homo sapiens with 6 samples.

Results

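The heat shock and DNAJ chaperone genes were described in RNA-seq of SPT5-AID cells that carried an shRNA against ARMC5. Members were the protein-coding genes of GENCODE 44 whose symbol belongs to the HSPA, HSPH1, HSP90, HSPD1 or HSPE1, HSPB, DNAJA, DNAJB, DNAJC or BAG series, plus the transcription factor genes HSF1 and HSF2. The rule found 77 genes among the 35810 genes with a transcript in the deposited files. SPT5-AID cells derive from DLD-1, a human colorectal adenocarcinoma line, and carry SPT5 fused to an auxin-inducible degron in both groups compared here. One group was infected with a lentivirus that expressed the shRNA against ARMC5 (shARMC5) and the other with one that expressed a nontargeting shRNA (shNT), with 3 polyadenylated RNA libraries in each. No auxin is named for any of these libraries, and which ARMC5 shRNA construct they carried is not given in the sources used here. Neither do the sources used here say whether the libraries of a group came from separate infections, so P values measure the spread between these libraries.

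Chaperones of the HSP70 family bind exposed stretches of unfolded proteins in a cycle driven by ATP. J proteins of the DNAJA, DNAJB and DNAJC families deliver clients and stimulate ATP hydrolysis, and BAG proteins and HSP110 proteins release the nucleotide. HSP90 acts later, on clients such as kinases and steroid receptors, while the chaperonin formed by HSPD1 and HSPE1 folds proteins in mitochondria. Under proteotoxic stress the factor HSF1 binds heat shock elements and induces many of these genes, and a separate response induces those of the endoplasmic reticulum.

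The labels were checked with ARMC5, which encodes an adaptor of the ubiquitin ligase CUL3. In shNT cells it was at 25.2 ± 1.95 CPM, or counts per 1000000 reads on tested genes scaled by the trimmed mean of M values (SD, n = 3). In shARMC5 cells it was at 11.9 ± 1.09 CPM (SD, n = 3), with each library below every shNT library. The libraries held 26201112 to 40866478 estimated reads, and between 2.959 and 3.039% of them lay on transcripts without a GENCODE 44 match. Epithelial markers summed to 9430 to 9520 CPM in shARMC5 and to 8330 to 8650 CPM in shNT cells. KRT8 (4440 against 3930 CPM), KRT18 (2820 against 2360 CPM) and KRT19 were called higher and VIL1 lower. CDH1, EPCAM and CDX2 had log2 fold changes of 0.0013, 0.03 and 0.01 and were not called, and LGALS4 was too low to test. Fibroblast, leukocyte and endothelial markers each summed to at most 1.55 CPM in every library, with 2 markers of each list at 0 reads throughout. The part that the differences in these epithelial markers have in the results was not tested. In bulk RNA, fewer cells with a transcript and less of it per cell cannot be told apart.

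Levels between genes are compared in TPM, transcripts per 1000000 transcripts, which account for transcript length. The members together held 1.57% of all TPM in shARMC5 and 1.56% in shNT cells. Cytosolic chaperones stood highest. The constitutive HSP70 gene HSPA8 had 2629 ± 80.3 TPM (SD, n = 3) in shARMC5 and 2568 ± 80.4 TPM (SD, n = 3) in shNT cells. HSP90AA1 followed with 2551 ± 62.9 and 2488 ± 79.9 TPM (SD, n = 3), and HSP90AB1 with 2285 ± 55.3 and 2237 ± 61.4 TPM (SD, n = 3). The spreads of HSPA8 and HSP90AA1 over libraries overlapped, while HSPA8 was the higher of both within each of the 6 libraries. The chaperonin genes HSPD1 and HSPE1 had mean levels over all libraries of 1306 and 1201 TPM, and the small heat shock protein gene HSPB1 had 1197 TPM. Below them stood HSP90B1 of the endoplasmic reticulum (705.1 TPM), HSPA9 of mitochondria (540.1 TPM), the HSP110 gene HSPH1 (394.6 TPM) and HSPA5, the HSP70 of the endoplasmic reticulum (314.6 TPM). DNAJB1 (275.7 TPM) and DNAJA1 (225.1 TPM), cytosolic partners of HSP70, were the most abundant J protein genes. HSF1 stood at 84.97 TPM and HSF2 at 16.89 TPM.

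**Figure D1:**
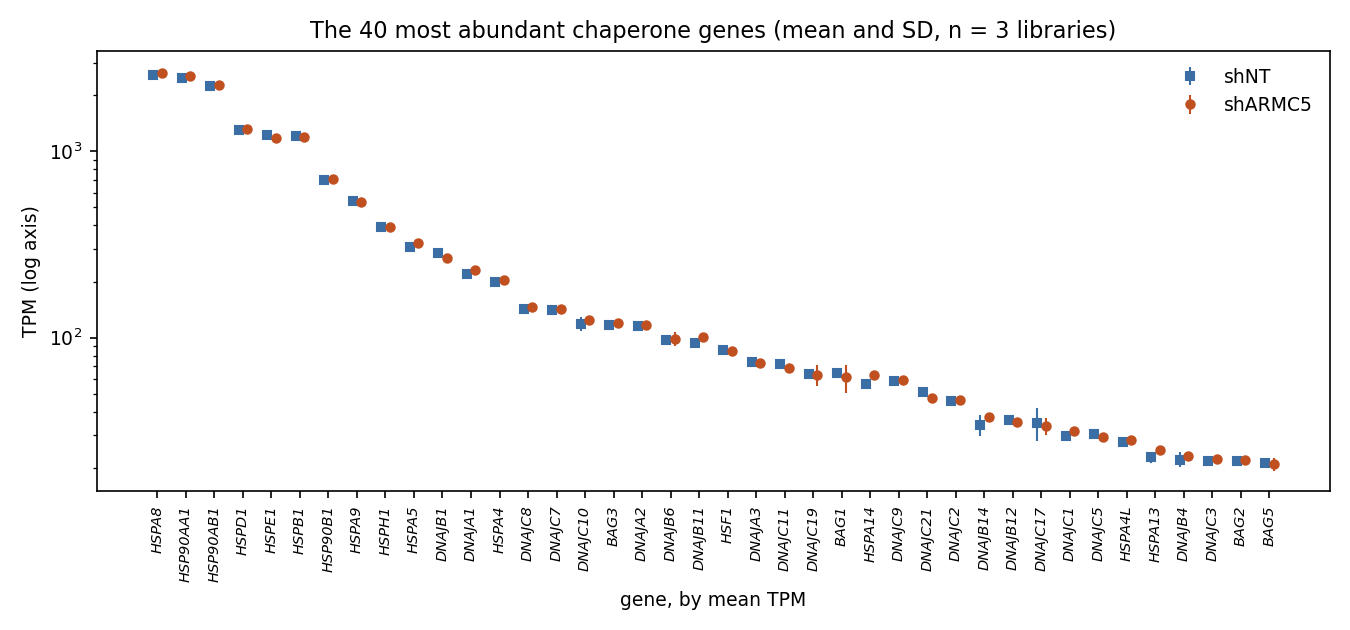
Mean level in TPM on a log axis for the 40 most abundant chaperone genes, with shNT libraries as squares, shARMC5 libraries as circles and bars for the SD over 3 libraries. HSPA8, HSP90AA1 and HSP90AB1 lie above 2000 TPM in both groups and the group means of each gene nearly coincide.

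Of the 77 members, 64 passed the filter of at least 10 counts in at least 3 libraries. Another 7 had 0 reads in every library, which allows up to 3 reads per library, or 0.0757 to 0.118 CPM, by counting error alone. These were DNAJA4, DNAJB8, HSPA12B, HSPA1A, HSPA1L, HSPB2 and HSPB8. The other 6 members under the filter were DNAJB7, DNAJB13, DNAJC12, HSPB3, HSPB7 and HSPB9, with at most 12 reads in a library. HSPA1A and HSPA1L lie in the MHC region, where reads may lie on transcripts without a match (as described for BAG6). Whether their zeros reflect expression was not tested.

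**Figure D2:**
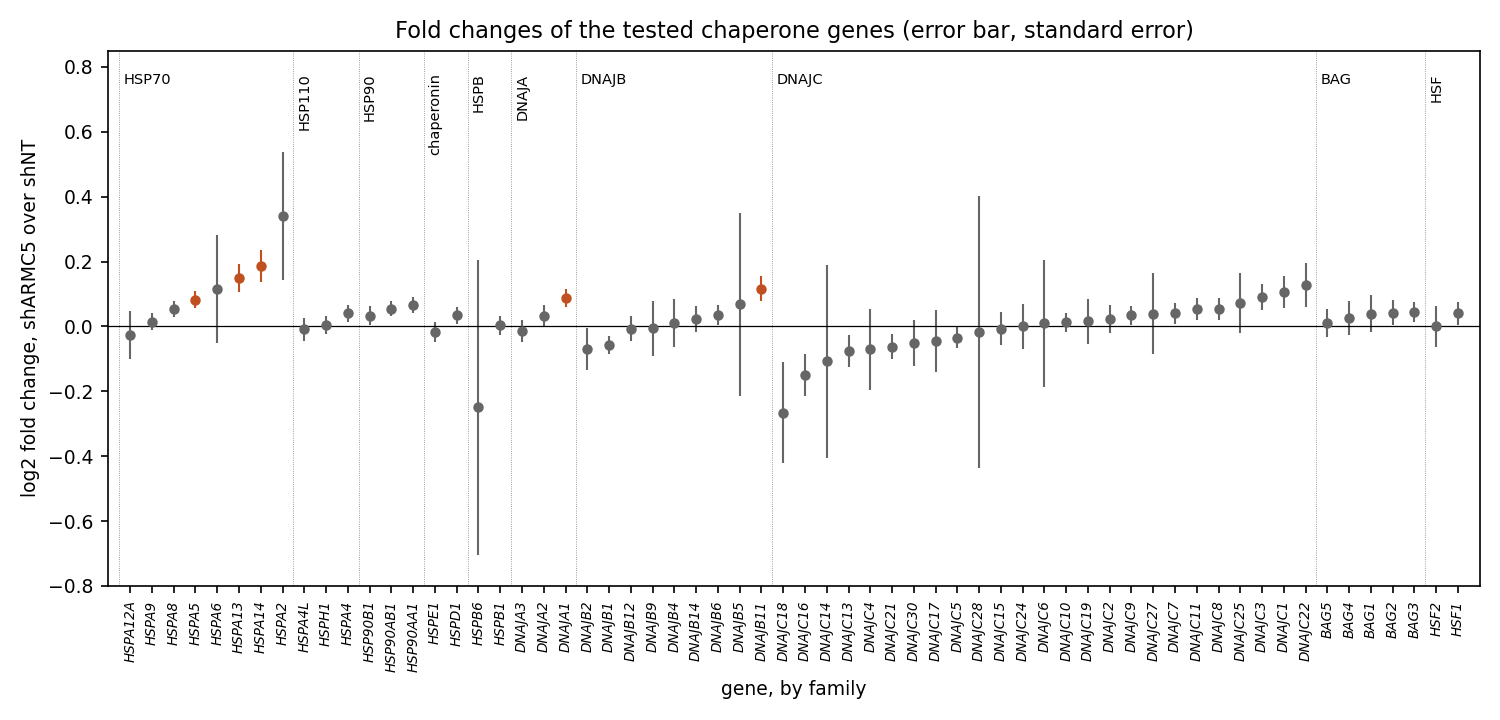
Log2 fold change, shARMC5 over shNT, of the tested chaperone genes by family, with bars for the standard error of the edgeR fit and the 5 called genes in orange. HSPA1B and BAG6, whose standard errors exceed 1, are left out, and the 18 members with a mean of at least 100 TPM lie between -0.0577 and 0.0877.

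By edgeR's quasi-likelihood test at an adjusted P under 0.1, 5 members were called higher in shARMC5 cells and none was called lower. The 5 were HSPA14, HSPA13, DNAJB11, DNAJA1 and HSPA5. The increases were small, between 1.06-fold and 1.14-fold. Over all 13737 genes tested 7.75% were called, 4.44% as higher and 3.3% as lower, so the 7.81% of members called is near the background. The 5 calls upward are above the background of that direction and the 0 calls downward below it, without a test of either difference. At an unadjusted P under 0.05 there were 10 members higher (15.6%, against 9.78% of all genes) and 1 lower, and DESeq2 called 5 members higher and none lower (7.81%, against 6.38% of all genes). Of these, 3 were shared with edgeR, HSPA14, DNAJA1 and HSPA5, while HSPA13 (DESeq2 adjusted P = 0.137) and DNAJB11 (DESeq2 adjusted P = 0.151) were not called. With an offset for transcript length, described below, both tests called 0 members, against 1.7% of all genes in edgeR and 4.13% in DESeq2. With the replicate number as a block, edgeR called 8 members higher and 2 lower (15.6%, against 12.9% of all genes). Groups did not overlap for 11 members with shARMC5 above (17.2%, against 12.5% of all genes) and for 0 members with shARMC5 below (against 10.9%). The log2 fold change was above 0 for 42 of the 64 members (65.6%, against 49.5% of all genes), and this share was 53.1% against 44% when libraries were scaled by total reads only. The median log2 fold change of the members was 0.019, beside -0.0014 over all genes. Their median absolute log2 fold change was 0.0418, smaller than the 0.0778 of all genes.

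HSPA14 encodes an HSP70 that sits with the J protein DNAJC2 on ribosomes, where it meets nascent chains. Its level was 67.1, 69.7 and 67.4 CPM in the shARMC5 libraries and 56.2, 58.6 and 65.0 CPM in the shNT libraries (replicates 1, 2 and 3). The groups did not overlap, although shNT replicate 3 came near. The log2 fold change of HSPA14 was 0.19 (standard error, SE, 0.05, edgeR adjusted P = 0.0406). It was the only member that also passed an adjusted P of 0.05. Its partner DNAJC2 had a log2 fold change of 0.02 (SE 0.04) and was not called. HSPA14 lies on chromosome 10 (GRCh38, 14838306 to 14871741, plus strand) and overlaps MSANTD7 on the same strand, a gene with 1081 to 1792 reads and a log2 fold change of -0.01, so reads from shared stretches were divided between both by salmon.

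HSPA13, a microsomal relative of HSP70, had 53.5, 55.8 and 53.3 CPM in shARMC5 and 50.5, 47.7 and 48.4 CPM in shNT libraries. DNAJB11, a J protein of the endoplasmic reticulum lumen that hands clients to HSPA5, had 103.2, 108 and 113 CPM against 96.8, 102.6 and 99.4 CPM. HSPA5 itself, also known as BiP and the main HSP70 of that compartment, had 869, 897 and 866 CPM against 814, 849 and 821 CPM. All of these genes act in the secretory pathway, and in each the shARMC5 libraries lay above the shNT libraries, by a narrow margin for DNAJB11. The log2 fold change was 0.15 for HSPA13 (SE 0.04, edgeR adjusted P = 0.0565). It was 0.12 for DNAJB11 (SE 0.04, edgeR adjusted P = 0.0956). It was 0.08 for HSPA5 (SE 0.03, edgeR adjusted P = 0.0991). DNAJB11 overlaps TBCCD1 on the opposite strand, which had a log2 fold change of -0.27 (edgeR adjusted P = 0.0946), and the library kit does not mark strand, so reads from the overlap cannot be told apart. It also overlaps a protein-coding gene without a symbol on the same strand, with 121 to 312 reads and a log2 fold change of -0.0022. Reads from stretches shared with that gene were divided by salmon.

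DNAJA1 encodes a cytosolic J protein that works with HSPA8. Its libraries had 335, 342 and 345 CPM in shARMC5 and 309, 325 and 328 CPM in shNT cells, again without overlap. The log2 fold change of DNAJA1 was 0.09 (SE 0.03, edgeR adjusted P = 0.0914). In TPM, which rest on the transcript lengths of each library, the groups of DNAJA1, DNAJB11 and HSPA14 still did not overlap. HSPA13 and HSPA5 did overlap there, with 312 to 331 TPM in shARMC5 and 296 to 314 TPM in shNT cells for HSPA5.

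**Figure D3:**
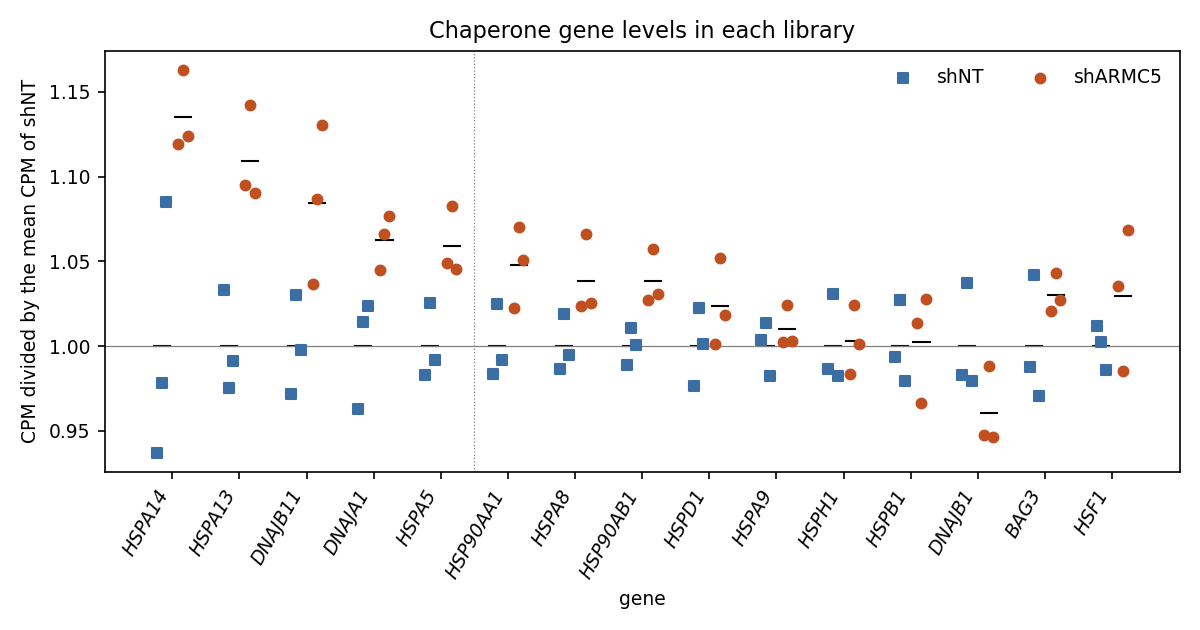
Level in each library, as CPM divided by the mean CPM of shNT, for the 5 called genes (left of the dotted line) and 10 other chaperone genes, with shNT as squares, shARMC5 as circles and a bar at each group mean. The called genes have means of 1.06 to 1.14, and HSPH1 and HSPB1 have both groups around 1.

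With 1 library left out, which leaves fewer samples, calls were lost while the fold changes stayed of similar size. HSPA14 was not called without shARMC5 replicate 2 (edgeR adjusted P = 0.182), shARMC5 replicate 3 (0.103), shNT replicate 1 (0.192) or shNT replicate 2 (0.123). HSPA13 was not called without shARMC5 replicate 2 (0.25), shNT replicate 2 (0.146) or shNT replicate 3 (0.151). DNAJB11 lost its call without shARMC5 replicate 2 (0.232), shARMC5 replicate 3 (0.313), shNT replicate 1 (0.313) or shNT replicate 3 (0.211). DNAJA1 lost it without shARMC5 replicate 1 (0.111), shARMC5 replicate 2 (0.237), shARMC5 replicate 3 (0.245), shNT replicate 1 (0.331) or shNT replicate 3 (0.105). HSPA5 lost it without shARMC5 replicate 1 (0.147), shARMC5 replicate 2 (0.335), shARMC5 replicate 3 (0.147), shNT replicate 1 (0.269) or shNT replicate 3 (0.247). The sign of the fold change stayed the same for these 5 genes in every alternative run. With a library left out the log2 fold change lay between 0.14 and 0.25 for HSPA14, 0.13 and 0.18 for HSPA13, 0.09 and 0.15 for DNAJB11, 0.06 and 0.10 for DNAJA1 and 0.07 and 0.10 for HSPA5. Without shARMC5 replicate 2, 0 members were called by edgeR, with 9 at an unadjusted P under 0.05, and 4.24% of all genes were called instead of 7.75%. The median log2 fold change of the members was then 0.0039, and the 5 genes had values between 0.0666 (HSPA5) and 0.1667 (HSPA14). That library had the highest level of the 6 for 22 of the 64 tested members (34.4%), against 16.5% of all genes, and for 11 of the 18 members with a mean of at least 100 TPM. It was also the deepest, with 40866478 reads, and the part of depth in this was not tested. An offset for transcript length, which corrects each gene for the lengths of the transcripts found in each library, left 0 members called in edgeR and in DESeq2, with 5 and 6 members at an unadjusted P under 0.05. Over all genes 1.7% were then called in edgeR and 4.13% in DESeq2. The edgeR log2 fold changes with the offset were 0.17 for HSPA14, 0.15 for HSPA13, 0.12 for DNAJB11, 0.10 for DNAJA1 and 0.08 for HSPA5.

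**Figure D4:**
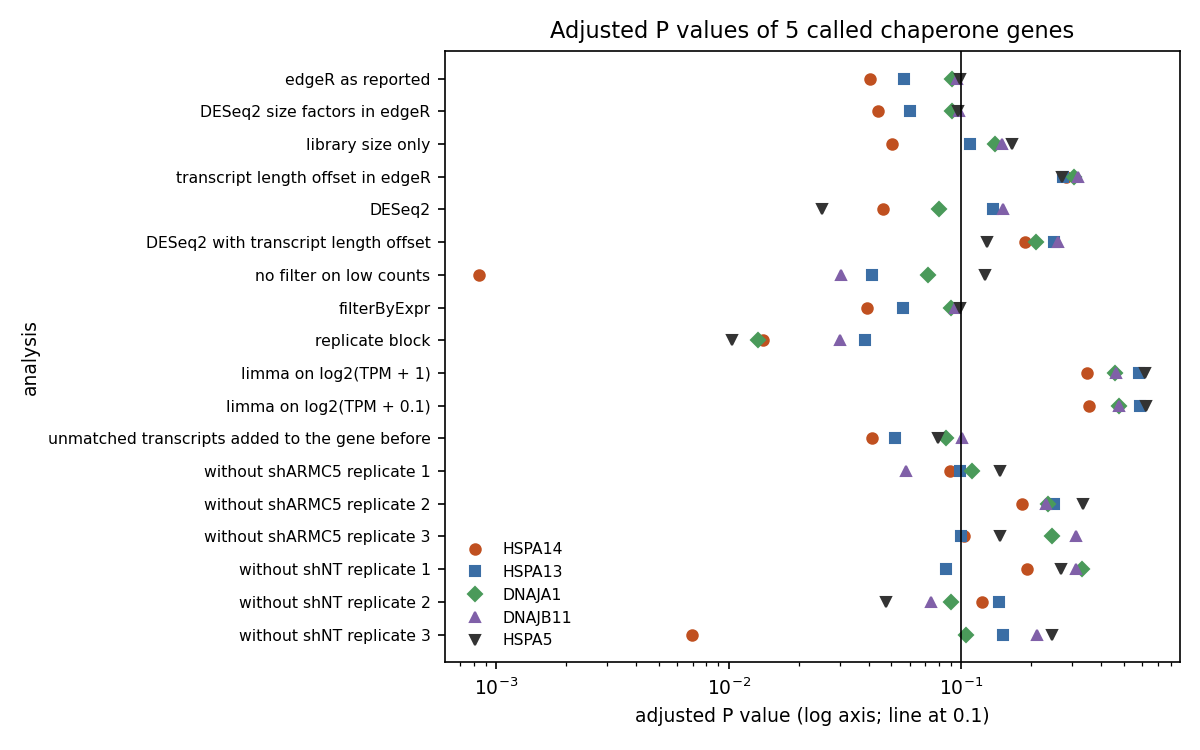
Adjusted P value, on a log axis with a line at 0.1, of the 5 called chaperone genes in each analysis of the same comparison. HSPA14 reaches the left side most often, and all 5 genes lie right of the line without shARMC5 replicate 2 and with the offset for transcript length.

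Members of the lumen of the endoplasmic reticulum were grouped after the values were seen. They were HSPA5, HSPA13, HSP90B1, DNAJB9, DNAJB11, DNAJC1, DNAJC3 and DNAJC10. The group may leave out other members of that compartment, and DNAJC16, described below, was not placed in it. Of the 8 grouped genes 3 were called higher, none was called lower and 7 had a log2 fold change above 0, with a median of 0.0871. Over all genes 4.44% were called higher, 49.5% were above 0 and the median was -0.0014. The group is small and was formed with its calls in view, so its counts cannot be read as a difference from those shares. Scaling by total reads only left 6 of the 8 above 0 and a median of 0.0728, beside 44% and -0.0155 for all genes. DNAJC1, a J protein that recruits HSPA5 to the membrane, had 41, 42.1 and 39.7 CPM against 38, 38.3 and 37.9 CPM, without overlap and without a call (log2 fold change 0.11, SE 0.05). DNAJC3, which also limits the kinase PERK, had 80.9 ± 1.75 CPM against 76.0 ± 3.91 CPM (SD, n = 3), with overlap. The disulphide reductase DNAJC10 had a log2 fold change of 0.01, HSP90B1 of 0.03 and DNAJB9, which the unfolded protein response strongly induces, of -0.01. Of the J proteins anchored in the membrane of the same compartment that face the cytosol, DNAJB12 had a log2 fold change of -0.01, DNAJB14 of 0.02 and DNAJC18 of -0.27 (SE 0.16), none of them called. With the offset for transcript length the value of DNAJC18 was -0.13 in edgeR and -0.12 in DESeq2. The 8 mitochondrial members HSPA9, HSPD1, HSPE1, DNAJA3, DNAJC11, DNAJC15, DNAJC19 and DNAJC30 held 4 values above 0 and a median of 0.0039, and edgeR called 0 of them, with 0 at an unadjusted P under 0.05 and 0 calls by DESeq2. Over all genes edgeR called 7.75%, 18.1% had an unadjusted P under 0.05 and DESeq2 called 6.38%. These 8 genes are too few to set against those shares.

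The abundant cytosolic HSP90 and HSP70 genes had log2 fold changes above 0 that edgeR did not call. HSP90AA1 had 5621, 5881 and 5774 CPM in shARMC5 and 5407, 5632 and 5451 CPM in shNT libraries, so that shARMC5 replicate 1 lay below shNT replicate 2. HSP90AB1 had 4038, 4157 and 4052 CPM against 3888, 3974 and 3934 CPM, with no overlap. HSPA8 had 3986, 4150 and 3992 CPM against 3840, 3967 and 3871 CPM, also with no overlap. The log2 fold changes were 0.07 for HSP90AA1 (SE 0.02, edgeR adjusted P = 0.150), 0.05 for HSP90AB1 (SE 0.02, edgeR adjusted P = 0.228) and 0.05 for HSPA8 (SE 0.02, edgeR adjusted P = 0.259). DESeq2 called HSP90AA1 (adjusted P = 0.0564) and HSP90AB1 (adjusted P = 0.0951), and edgeR called HSP90AA1 without shNT replicate 2 (adjusted P = 0.0444). With a replicate block edgeR called HSP90AA1 (adjusted P = 0.0101), HSP90AB1 (adjusted P = 0.0405) and HSPA8 (adjusted P = 0.0395). At least 100674 reads per library lay on each of these genes. The 18 members with a mean of at least 100 TPM had log2 fold changes between -0.0577 and 0.0877, of which 16 were above 0 and 2 were called, beside 49.5% above 0 and 7.75% called over all genes. With libraries scaled by total reads only, 13 of the 18 and 44% of all genes were above 0.

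DNAJB1, a cytosolic J protein and a classical target of HSF1, was at the lower end of that range. Its level was 390, 407 and 390 CPM in shARMC5 and 405, 427 and 404 CPM in shNT libraries. The groups overlapped, and the log2 fold change was -0.06 (SE 0.03, edgeR adjusted P = 0.308). With a replicate block DNAJB1 was called lower at the same fold change (edgeR adjusted P = 0.0719). The group means of HSPH1, HSPB1 and HSPE1 differed by less than the spread between libraries. HSPH1 had 862 ± 17.5 CPM against 859 ± 23.0 CPM (SD, n = 3), HSPB1 494 ± 15.9 against 493 ± 12.2 CPM (SD, n = 3) and HSPE1 319 ± 9.29 against 323 ± 13.1 CPM (SD, n = 3). HSPA6, an HSP70 gene that is silent in most unstressed cells, stayed between 2.88 and 3.60 CPM in the 6 libraries. The transcription factor genes HSF1 and HSF2 had log2 fold changes of 0.04 (SE 0.04) and 0.00 (SE 0.06), and HSF1 is itself regulated mostly after translation, which these data do not measure.

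Among the 25 tested DNAJC genes edgeR called 0, with 3 at an unadjusted P under 0.05 and 0 calls by DESeq2. Over all genes 7.75% were called and 18.1% had an unadjusted P under 0.05. Their log2 fold changes ran from -0.2657 for DNAJC18 to 0.1263 for DNAJC22. DNAJC16 had 30.9, 31.0 and 27.4 CPM in shARMC5 and 33.6, 34.8 and 30.7 CPM in shNT libraries (log2 fold change -0.15, SE 0.07, edgeR adjusted P = 0.237). Its groups overlapped, and in TPM the order of the means was the opposite, 8.72 ± 2.30 in shARMC5 against 8.23 ± 0.895 in shNT cells (SD, n = 3). The small heat shock protein gene HSPB6, the testis-enriched HSPA2 and DNAJC18 had larger fold changes with wide errors. HSPA2 had 2.71 ± 0.175 CPM against 2.14 ± 0.365 CPM (SD, n = 3), a log2 fold change of 0.34 (SE 0.20), on 55 to 114 reads. HSPB6 had 7 to 20 reads in a library and a log2 fold change of -0.25 (SE 0.45). That value was -0.74 with unmatched transcripts added to the gene listed before them, and 0.02 without shNT replicate 2. The nucleotide exchange factor genes BAG1 and BAG3, the latter an HSF1 target that directs clients to autophagy, had log2 fold changes of 0.04 (SE 0.06) and 0.04 (SE 0.03). edgeR called 0 of the 6 BAG genes, with 0 at an unadjusted P under 0.05 and 0 calls by DESeq2, and 6 genes are too few to set against those shares.

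Promoters of the members were searched for the sites of the stress-responsive factors, in the RefSeq windows (GRCh38.p14) from 250 bases before to 50 bases after a start, 300 bases in all. A window was found for 69 of the 77 members, 91 windows in all. A heat shock element of 3 units (GAANNTTC followed by NNGAA, or TTCNNGAA followed by NNTTC, on both strands) was in the windows of 7 members, or 7.69% of their windows against 0.49% of the 35116 windows of all genes. The sites of the most abundant of these members and of the called DNAJA1 are shown on the strand of the gene, with the element in capitals.
DNAJA1, plus strand, chr9:33025270-33025294: cgggcgGAACTTTCCAGAAcgctcg
HSP90AA1, minus strand, chr14:102087114-102087138: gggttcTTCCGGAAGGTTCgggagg
HSP90AB1, plus strand, chr6:44247825-44247849: agattgTTCTGGAAGCTTCtggatt
HSPA8, minus strand, chr11:123062173-123062197: ggccccTTCTGGAAGGTTCtaagat
HSPD1, minus strand, chr2:197500062-197500086: tttctgGAAAGTTCTGGAAccgagc

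HSP90AB1, HSPA8 and HSPD1 each held a further match in the same window. With DNAJB6 and HSPA6 these members numbered 7, all with a log2 fold change above 0, a median of 0.0545 and 1 call, DNAJA1. Over the 54 tested genes of any kind with such a window the median was 0.0382 and 9.26% were called. The shorter element of 2 units (GAANNTTC or TTCNNGAA), which every element of 3 units contains, was in the windows of 23 members, 26.4% of their windows against 13.5% of all. Its 17 tested members, DNAJB1, HSPB1 and HSPA9 among them, had a median log2 fold change of 0.0142, with 12 above 0 and 1 called. Over the 1438 tested genes of any kind with this element the median was -0.0031 and 7.09% were called. A match is a description of the letters in the window and not of binding.

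The element of the endoplasmic reticulum stress response, CCAAT and CCACG with 9 bases between them on either strand, was searched in this spaced form after the data were seen. It was in the windows of HSPA5 and HSP90B1 and of no other member, 2.2% of member windows against 0.0769% of all, and in 16 tested genes of any kind with a median log2 fold change of 0.0391. The HSP90B1 window held it on both strands, and the match on the gene's strand is shown.
HSPA5, minus strand, chr9:125241388-125241412: tcaCCAATCGGCGGCCTCCACGacg
HSP90B1, plus strand, chr12:103930213-103930237: tgaCCAATCGGAAGGAGCCACGctt

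These genes carry the same element, yet HSPA5 was called and HSP90B1, with 1282 ± 39.5 CPM against 1253 ± 32.6 CPM (SD, n = 3), was not; the difference between their fold changes was not tested. CCAAT together with CCACG at any distance were in the windows of 17 members, 23.1% of their windows against 12.1% of all.

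BAG6, which shields hydrophobic segments of proteins on their way to membranes or the proteasome, had a wider scatter between libraries than any other member with a mean above 1 CPM. Its reads were 1680, 100 and 163 in the shARMC5 libraries and 534, 2019 and 2066 in the shNT libraries. The groups overlapped, and the log2 fold change of -1.25 had an SE of 1.31. A run of 33 consecutive transcripts without a GENCODE 44 match repeated 6 of the 8 transcript lengths of BAG6, and none of the other 4649 such runs shared more than 1 of them. This run held 2025, 4130 and 2067 reads in shARMC5 and 3057, 1679 and 2118 reads in shNT libraries, with its highest values where BAG6 had 100 and 534 reads. The run was tied to BAG6 by transcript lengths only, and whether its reads belong to BAG6 was not tested. With the run added, the sum was at 122, 107 and 88.4 CPM against 110, 114 and 149 CPM. The highest library was then 1.69 times the lowest, instead of 29.0 times. The log2 fold change of the sum was -0.23 (SE 0.19, edgeR adjusted P = 0.635), an analysis chosen after the data were seen.

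**Figure D5:**
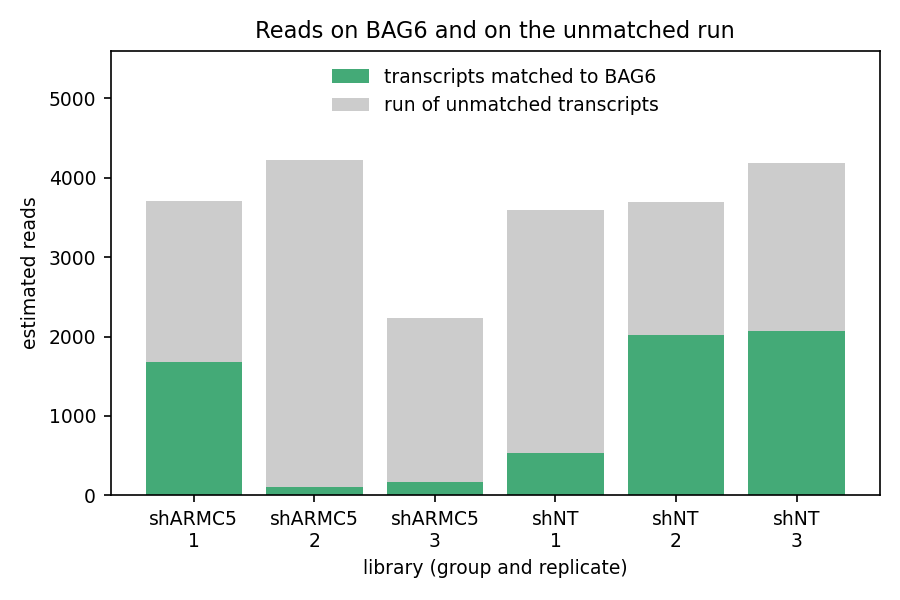
Estimated reads per library, not scaled for depth, on the transcripts matched to BAG6 (green) and on the run of unmatched transcripts that repeats 6 of its 8 transcript lengths (grey). The green part runs from 100 to 2066 reads while the stacked sum stays between 2230 and 4230 reads.

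HSPA1A and HSPA1B, the classical heat-inducible HSP70 genes, lie near BAG6 on chromosome 6 and are nearly identical in sequence. HSPA1A had 0 reads in every library, and HSPA1B had 17, 0 and 0 reads in shARMC5 and 44, 0 and 16 reads in shNT libraries. The fitted log2 fold change of HSPA1B, -1.79 with an SE of 1.87, rests on these few reads, and summing both genes gave the same value. Unmatched transcripts of the length of HSPA1B, 2517 bases, held 1763 to 2827 reads, but 14 matched transcripts of other genes have the same length, so length does not identify them. Unmatched transcripts with reads were also listed directly after other members. Whether those reads belong to these members was not tested. DNAJC14 had 24 to 39 reads, while 1018 to 1616 reads lay on unmatched transcripts listed directly after it. Unmatched transcripts after HSPA4, an HSP110 gene, held 55.6% of the sum of both, and after BAG1 33.7%. With these reads added the log2 fold change of HSPA4 was 0.05 (edgeR adjusted P = 0.276), that of DNAJC14 0.04 (edgeR adjusted P = 0.744) and that of BAG1 0.07 (edgeR adjusted P = 0.346), none of them called. Adding such reads changed the sign for DNAJA2, from 0.03 to -0.0016, and for DNAJC17, from -0.04 to 0.09. Neither gene was called then (edgeR adjusted P = 0.988 and 0.679). Without the 4 members of the MHC region 5 of 62 tested members were called and the median log2 fold change was 0.0229.

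The transcripts of the members were also fitted singly. Of 512 transcripts 241 passed the filter, and edgeR called 0 of them, beside 4 of 49809 transcripts in all (0.00803%). An unadjusted P under 0.05 was reached by 10 of them, 4.15% against 4.93% of all transcripts. Single transcripts carried nearly all reads of the called genes, 99.2% for HSPA14, 99.9% for HSPA13, 99.8% for DNAJA1, 96.3% for DNAJB11 and 100% for HSPA5, and their log2 fold changes of 0.19, 0.15, 0.09, 0.14 and 0.09 were close to those of the genes. The lowest P among the members belonged to HSPD1-201, which held 182, 277 and 99 reads in shARMC5 and 28, 44 and 63 reads in shNT libraries. It carried 0.2% of the reads of HSPD1, and its log2 fold change of 1.93 was not called (edgeR adjusted P = 0.469). The short transcript HSP90AA1-203 went the other way, with 232, 423 and 208 reads against 376, 701 and 578 reads, and was not called either (log2 fold change -1.01, edgeR adjusted P = 0.712).

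Partners of the members were counted in 6 lists of 80 genes, of which 79 were tested and 7 called (8.86%, against 7.75% of all genes), 5 higher and 2 lower. The log2 fold change was above 0 for 57 of the 79, against 49.5% of all genes. It was above 0 for 10 of 15 HSP70 co-chaperones and 11 of 17 HSP90 co-chaperones. The number called higher was 2 without shARMC5 replicate 2, shARMC5 replicate 3, shNT replicate 1 or shNT replicate 3, and 8 without shNT replicate 2. Among 15 HSP70 co-chaperones 2 were called. TOMM34, which links HSP70 and HSP90 to mitochondrial import, rose from 107 ± 0.220 to 125 ± 5.25 CPM (SD, n = 3), a log2 fold change of 0.22 (edgeR adjusted P = 0.00118). GRPEL1, the exchange factor of HSPA9, had a log2 fold change of 0.13 (edgeR adjusted P = 0.0938) and was not called by DESeq2. In the same list HYOU1, SIL1 and SEC63 had log2 fold changes of 0.01, 0.01 and 0.02 and were not called. Among 17 HSP90 co-chaperones the immunophilins FKBP4 and FKBP5 went in opposite directions. FKBP4 rose from 223 ± 7.94 to 249 ± 3.35 CPM (SD, n = 3; log2 fold change 0.15, edgeR adjusted P = 0.00523), and FKBP5 fell from 74.2 ± 1.62 to 64.1 ± 4.83 CPM (SD, n = 3; log2 fold change -0.21, edgeR adjusted P = 0.0210).

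The cytosolic chaperonin TRiC and its partner prefoldin had 13 of 14 genes above 0 and a median log2 fold change of 0.0676, and 2 subunit genes were called, CCT8 (log2 fold change 0.09, edgeR adjusted P = 0.0733) and CCT2 (log2 fold change 0.09, edgeR adjusted P = 0.0806). Over all genes 49.5% were above 0 and 4.44% were called higher. Scaling by total reads only left 13 of 14 above 0, against 44% of all genes, and DESeq2 called 3 of the 14, CCT2, CCT4 and CCT8. The list of 16 other endoplasmic reticulum chaperones and unfolded protein response genes had 10 genes above 0 and 0 calls by edgeR. An unadjusted P under 0.05 was reached by 3 of the 16, DDIT3, CALR and P4HB, and by 18.1% of all genes. XBP1 went the other way, with a log2 fold change of -0.26 (edgeR adjusted P = 0.362). DESeq2 called CALR and P4HB. CALR, a lectin chaperone of the compartment of HSPA5, had 987 ± 10.2 CPM in shARMC5 and 932 ± 27.6 CPM in shNT cells (SD, n = 3; log2 fold change 0.08, edgeR adjusted P = 0.107). The 8 mitochondrial proteases and folding factors had 5 genes above 0 and 0 calls by edgeR and by DESeq2, with 2 at an unadjusted P under 0.05. Over all genes edgeR called 7.75%, DESeq2 called 6.38% and 18.1% had an unadjusted P under 0.05, and 8 genes are too few to set against those shares. The list of other HSF1-linked genes, with 13 tested, shares FKBP4, STIP1, AHSA1 and CHORDC1 with the HSP90 list. It held 1 call higher and 1 lower (15.4%, against 7.75% of all genes). FKBP4, described above, was the gene called higher, by DESeq2 too. DEDD2 was called lower (log2 fold change -0.16, edgeR adjusted P = 0.0667), a call that DESeq2 did not make. Of the 13 genes 11 were above 0 (against 49.5% of all genes).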

How the data were processed

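RNA-seq of 3 shARMC5 and 3 shNT libraries of SPT5-AID cells was analysed. Per the processing notes the authors used cutadapt 4.2 for trimming and Salmon 1.9.0, with correction for GC content, to quantify transcripts. The deposited values used were the estimated count of reads and the TPM of each transcript, and the effective lengths served for length offsets. The build named is hg38, and the transcript set is not given in the sources used here. Of 177456 transcript identifiers, 165533 matched GENCODE 44 without version, and 11923 were left out.

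Estimated counts of a gene's transcripts were added up and rounded, and the main fit has no offset for transcript length. The study summarised its estimates with tximeta and tested them with DESeq2. Whether a length offset entered there is not given in the sources used here. Genes that reached 10 counts in 3 or more libraries, the study's filter, were tested with edgeR 4.0.16 (R 4.3.3), by the robust quasi-likelihood test with TMM factors and no term but condition. P values were adjusted by Benjamini-Hochberg over all 13737 genes, and 0.1, the study's threshold, defines a called gene. A standard error is the fold change divided by the root of F. Counts with 26201112 to 40866478 reads per library leave counting error in low genes, and intervals for it were not drawn. On simulated data of 13737 genes for this comparison the test recovered 55.2% of log2 changes of 0.25, 89.6% of 0.5 and 100% of 1, with 14.2% of calls false. These changes were set in 67, 67 and 66 genes, drawn only from genes with many reads. All called members had log2 fold changes under 0.25, so these rates do not describe their calls.

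Alternatives were DESeq2 size factors, library size only, a transcript length offset, DESeq2 1.42.0, no filter, filterByExpr, a replicate block, limma 3.58.1 on log2(TPM + 1) and log2(TPM + 0.1), unmatched transcripts added to the gene listed before them, each library left out and an adjusted P under 0.05. Named genes were all called members, 19 listed chaperone genes, the 10 most abundant members, the 5 largest fold changes, members under the filter and up to 3 called genes each way per related list. Others, DNAJC16 and the J proteins of the endoplasmic reticulum among them, were named after their values were seen. Members and lists were chosen with earlier results of these data known. Python 3.11.15 with pandas 2.3.3 was used for tables.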

Additional observations from a re-analysis of the deposited data

How the results depend on the processing

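The 5 called members kept the sign of their fold change in every alternative, and of 19 other named members 8 changed sign in at least 1 alternative, all with small or imprecise fold changes. Members called higher numbered 1 with library size only, 0 with the transcript length offset in edgeR, 0 with DESeq2 and that offset, 0 with limma on log2(TPM + 1), 0 with limma on log2(TPM + 0.1) (3 at an unadjusted P under 0.05 in each limma fit), 1 at an adjusted P under 0.05, 4 with unmatched transcripts added (without DNAJB11, adjusted P = 0.101), 4 with no filter (without HSPA5, adjusted P = 0.127), and 0 to 4 with a library left out; the lowest, 0, was without shARMC5 replicate 2. All genes called higher numbered 139 with the offset in edgeR, 300 with DESeq2 and the offset, 34 with each limma fit and 342 to 622 with a library left out. All genes called lower numbered 95, 268, 35 and 185 to 452 in the same order, 745 without a filter and 261 at an adjusted P under 0.05. Related genes called higher numbered 2 with library size only, 2 with the offset in edgeR, 2 with DESeq2 and the offset, 0 with each limma fit, 2 at an adjusted P under 0.05 and 2 to 8 with a library left out. Related genes called lower numbered 1 with the offset in edgeR, 1 with DESeq2, 0 with each limma fit, 1 at an adjusted P under 0.05 and 1 to 3 with a library left out. Leaving out a library leaves fewer samples; the cause of the other shifts was not tested.

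Replicate numbers were shared by both groups, and the labels do not say whether they mark pairs. Deviations of same-numbered libraries had correlations of 0.00892, 0.11 and 0.159 over 10354 genes. For shARMC5 replicates 2 and 3 the same-numbered shNT library correlated best. For shARMC5 replicate 1 the values were all near 0, from -0.0262 (shNT replicate 2) to 0.0165 (shNT replicate 3). These values do not decide whether the libraries are paired, and the main fit used condition only. A replicate block gave 8 members higher and 2 lower, 972 genes higher and 794 lower in all, and 11 related genes higher. The members called only with the block were HSP90AA1, HSP90AB1 and HSPA8 (higher) and DNAJB1 and DNAJC16 (lower), when set against the main fit. The incomplete transcript match may limit BAG6, HSPA1A, HSPA1B, HSPA1L and DNAJC14, for which its part was not tested. HSPA2, HSPB6 and DNAJC28 are limited by their few reads.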
